A study of Mus musculus with 47 samples.

Results

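Carbonic anhydrases are the zinc enzymes that interconvert carbon dioxide and bicarbonate, and 8 genes of this family are described here: Car2, Car4, Car7, Car8, Car10, Car11, Car12 and Car14. The members were found as the rows of both count tables whose Ensembl identifiers map to these symbols, and all 8 were present among 35032 genes counted in either table. Within a region, only genes averaging 50 or more reads per library were tested. All 8 members passed it in brainstem, among 13340 genes, and 7 passed it in hippocampus, among 13272 genes, since Car8 had a mean of only 48.5 reads there. The set was chosen by the difference of Car12 between TG and WT hippocampus on both diets, so these Car12 values are given below as a description without a test.

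The mice were males of C57BL/6 background, aged 12 months, and kept on their diet from the age of 5 weeks. TG mice were homozygous for a transgene driven by the Thy1 promoter in neurons of the central nervous system, and WT mice came from a parallel colony founded from the same outcross. Any other difference between the colonies therefore cannot be told apart from the transgene. Standard chow (SD) or high-fat diet (HFD) gave the groups TG_SD, TG_HFD, WT_SD and WT_HFD, each with 6 libraries of hippocampus (all subfields) and 6 of brainstem (the medulla), except brainstem WT_SD with 5, where 1 sample of low RNA integrity was left out by the authors. The methods give 6 animals per group and region, but the labels do not say which brainstem and hippocampus libraries came from the same mouse.

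The members fall into classes that differ in place and in activity. Car2 is the abundant cytosolic enzyme of oligodendrocytes and choroid plexus, and Car7 is a cytosolic enzyme of neurons that supplies bicarbonate for currents through GABA-A receptors. Car4 is tethered to the outer membrane by a lipid anchor and is known from brain capillaries, while Car12 and Car14 span the membrane with the active site outside the cell. Car8, Car10 and Car11 lack catalytic activity. Car8 binds the IP3 receptor Itpr1 and is best known from Purkinje cells of the cerebellum, and Car10 and Car11 are ligands of neurexins at synapses.

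Depth ranged from 10020784 to 15078812 reads per library in brainstem and from 11945971 to 17328447 in hippocampus. Levels are given in CPM (reads of a gene scaled to a common library size, by TMM over all 47 libraries), and levels of different genes are compared in CPM per kilobase of exon (RPKM). In bulk tissue, fewer cells of a type and less RNA per cell cannot be told apart.

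Brainstem and hippocampus had different carbonic anhydrase profiles. Hippocampus was higher in Car4, Car7, Car11 and Car12, and brainstem was higher in Car2, Car8, Car10 and Car14. All 8 members passed the region test (edgeR quasi-likelihood F test over 13462 genes, adjusted p of at most 0.05 and absolute log2 fold change of at least 0.3), against 60.2% of all genes tested, so a call alone is common here. All 8 also passed in each group taken separately, where 59.6% (WT_SD), 61.5% (WT_HFD), 60.8% (TG_SD) and 58.6% (TG_HFD) of all genes did. The absolute log2 difference between the regions had a median of 1.5 over the members and 0.40 over all genes. CPM ranges of the 23 brainstem and 24 hippocampus libraries did not overlap for 6 members, Car7 and Car8 being the exceptions, and for 35% of all genes.

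**Figure D1:**
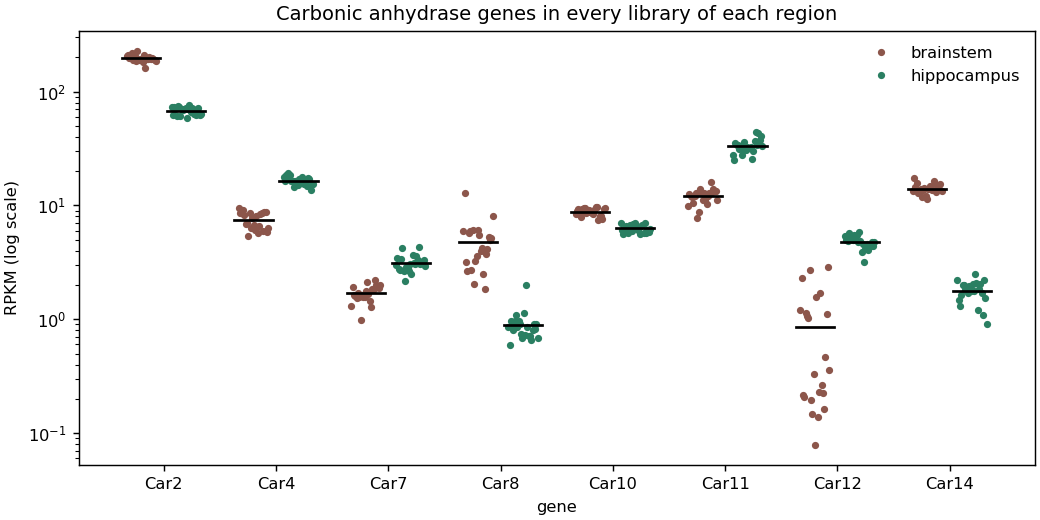
RPKM of the 8 carbonic anhydrase genes in every library (points, log axis) with the region mean (line), for 23 brainstem and 24 hippocampus libraries. Car2 is the highest gene in both regions, Car14 and Car2 are lower in hippocampus, and Car12 spreads widely in brainstem, from 0.0785 to 2.86 RPKM.

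Per length of exon, Car2 was by far the highest member in both regions, at 196 ± 13.6 RPKM (SD, n = 23) in brainstem and 68.1 ± 4.95 RPKM (n = 24) in hippocampus. In brainstem the order of the means then ran Car14, Car11, Car10, Car4, Car8, Car7 and Car12, from 14.0 down to 0.857 RPKM, and the ranges over libraries of each pair of neighbours after Car2 overlapped. In hippocampus it ran Car11 (33.2 ± 4.76 RPKM), Car4 (16.5 ± 1.41 RPKM), Car10, Car12, Car7, Car14 and Car8 (0.884 ± 0.275 RPKM). Here the ranges of Car2, Car11, Car4 and Car10 were apart from one another, and from Car10 downward neighbours overlapped. With the longest transcript as the length, Car10 moved ahead of Car11 in brainstem (16.7 and 14.6 RPKM).

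Among the membrane enzymes, Car14 and Car12 were spread in opposite ways over the 2 regions. Car14 had 29.0 to 43.9 CPM in brainstem and 2.31 to 6.36 CPM in hippocampus, a log2 difference (hippocampus minus brainstem) of -2.99 ± 0.0622 (SE), or 7.96-fold. The ranges were far apart in every group. In the reference annotation (GENCODE M21), 17.5% of the exon bases of Car14 are shared with Aph1a on the opposite strand, a gamma-secretase subunit at 47.6 CPM in brainstem and 40.4 CPM in hippocampus, and how reads of the shared bases were assigned is not given in the sources used here. The part of these reads in the Car14 values was not tested. No other member shares exon bases with another annotated gene.

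Car12 in hippocampus was a gene of moderate level with a narrow spread, 24.3 to 44.1 CPM over 24 libraries. In brainstem it ran from 0.597 to 21.7 CPM. The fitted region difference was 2.51 ± 0.242 on the log2 scale (5.71-fold) and its SE was the largest of the 8 members.

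The Car12 values that chose this set are those of TG and WT hippocampus. On SD the 6 TG libraries had 37.0, 37.4, 38.1, 39.5, 40.8 and 43.0 CPM, and the 6 WT libraries had 24.3, 29.4, 31.4, 34.9, 34.9 and 36.8 CPM. The groups did not overlap, but the highest WT library and the lowest TG library lay next to each other. On HFD the TG libraries had 36.3, 37.8, 40.0, 41.6, 42.1 and 44.1 CPM, and the WT libraries had 31.1, 33.1, 33.5, 33.5, 36.0 and 36.6 CPM. Here the lowest TG library fell just below the highest WT library.

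**Figure D2:**
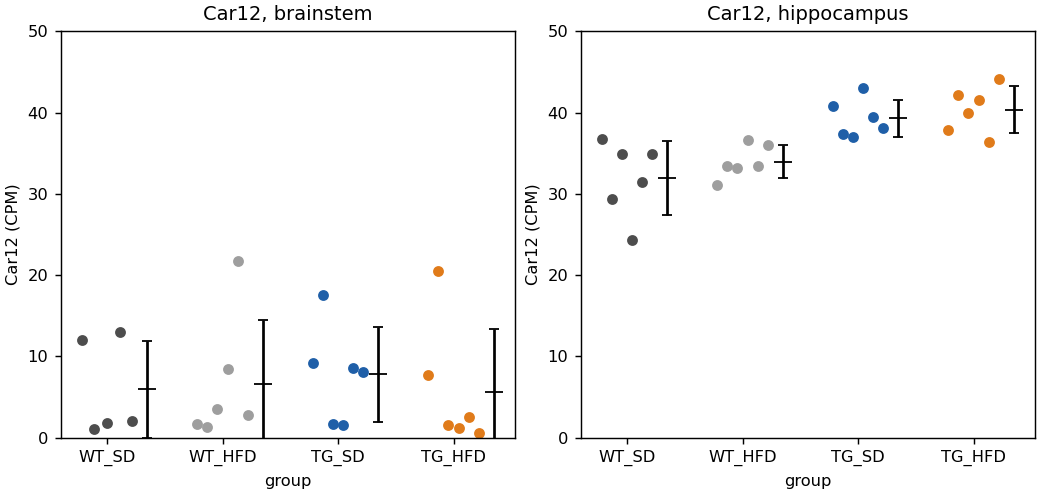
Car12 CPM in every library (points) by group, with the group mean and SD (bars), in brainstem (left) and hippocampus (right). In hippocampus TG libraries lie between 36.3 and 44.1 CPM and WT libraries between 24.3 and 36.8 CPM, while brainstem groups span 0.597 to 21.7 CPM and overlap widely.

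The ratio of the group means of Car12 CPM in hippocampus was 1.23 on SD (39.3 ± 2.31 against 31.9 ± 4.58 CPM) and 1.19 on HFD (40.3 ± 2.87 against 34.0 ± 2.02 CPM). The fit, which adjusts for 4 surrogate variables (unknown sources of variation estimated from all genes, whose number a permutation method set at 4 and the Leek method at 0), gave larger log2 fold changes, 0.38 ± 0.0645 (SE) on SD and 0.40 ± 0.0824 on HFD. Without surrogate variables they were 0.31 and 0.25, and the limits that chose Car12 were no longer met on either diet. Leaving out 1 WT_SD library, replicate 6 with 24.3 CPM, lowered the values to 0.22 on SD and 0.27 on HFD, and the limits were then met on neither diet. They were also missed on both diets without WT_SD replicates 3 or 8 or WT_HFD replicate 8, and on HFD without TG_HFD replicates 5, 6 or 8. Car12 was the only one of 7 members past both limits in hippocampus, on SD (0.098% of all genes) and on HFD (0.226% of all genes), and it was also the only member whose groups did not overlap on SD (0.234% of all genes), while none was apart on HFD (4.27% of all genes). Nothing is read from these counts, since the same contrasts chose the gene.

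Car12 did not pass the test for diet in hippocampus. The log2 fold change of HFD over SD was 0.00 ± 0.0708 in WT (95% interval -0.14 to 0.15) and 0.03 ± 0.0581 in TG (interval -0.09 to 0.14), with adjusted p = 0.997 and 0.963 in edgeR. The difference of the genotype log2 fold changes between the diets was 0.02 ± 0.0935.

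In brainstem the genotype difference of Car12 did not pass the test. The TG_SD libraries had 1.58 to 17.5 CPM (median 8.33) and the 5 WT_SD libraries had 1.05, 1.76, 2.0, 11.9 and 13.0 CPM. The TG_HFD libraries had 0.597 to 20.5 CPM (median 2.0) and the WT_HFD libraries 1.24 to 21.7 CPM (median 3.14). Each group held low and high libraries. The fitted log2 fold changes were -0.17 ± 0.208 on SD (interval -0.59 to 0.26, adjusted p = 0.828 in edgeR) and -0.03 ± 0.240 on HFD (interval -0.52 to 0.46, adjusted p = 0.998). Without surrogate variables the values were 0.41 on SD (interval -1.22 to 2.04) and -0.23 on HFD (interval -1.81 to 1.35).

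The spread of Car12 in brainstem ran with that of choroid plexus genes. Transthyretin (Ttr), the main secreted product of choroid plexus epithelium, had at most 41.6 CPM in 10 brainstem libraries and at least 235 CPM in the other 13. Car12 had 0.597 to 2.0 CPM in the 10 and 2.51 to 21.7 CPM in the 13, with no overlap. The potassium channel subunit Kcne2 went from at most 1.03 CPM to at least 1.93 CPM, and the summed level of the 10 choroid plexus markers ranged from 544 to 4621 CPM over all brainstem libraries. Of this sum, Enpp2 alone gave at least 506 CPM in every library, those of low Ttr included. Libraries of at most 41.6 CPM Ttr numbered 2 in TG_SD, 3 in TG_HFD, 3 in WT_SD and 2 in WT_HFD. Folr1 and Kcne2 were each at 0 in their lowest brainstem library.

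**Figure D3:**
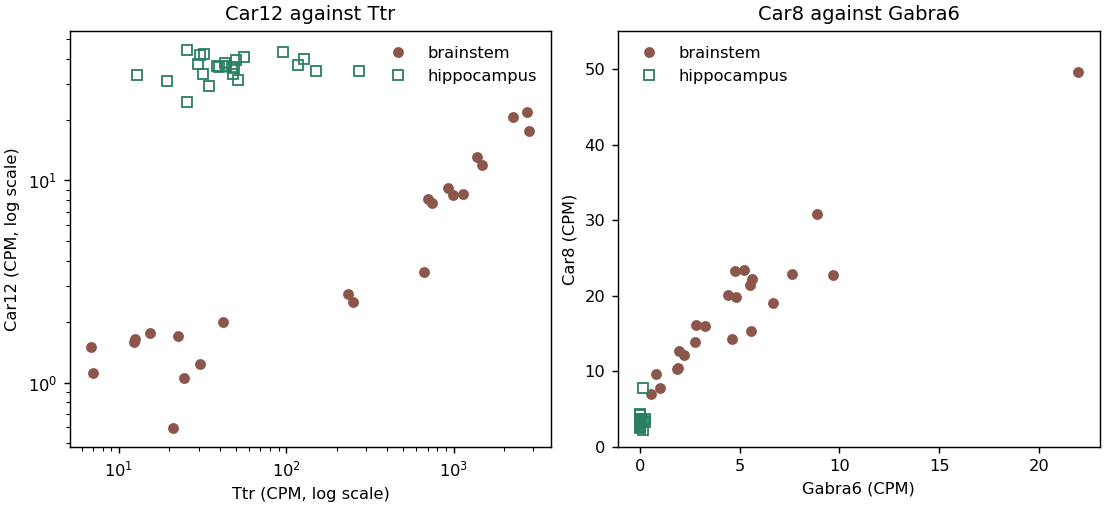
Left, Car12 against Ttr in CPM on log axes, 1 point a library. Right, Car8 against Gabra6 in CPM on linear axes. In brainstem (filled circles) Car12 reaches 21.7 CPM only where Ttr is high, and Car8 is highest, at 49.6 CPM, in the library with 21.9 CPM of Gabra6. In hippocampus (open squares) Car12 stays between 24.3 and 44.1 CPM while Ttr runs from 12.8 to 273 CPM.

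Because the brainstem libraries form 2 clusters by Ttr, on either side of a limit of 100 CPM chosen after seeing the data, the relation was computed within each. Deviations from group means of log2 CPM were used for Car12 and for the mean of 5 choroid plexus markers with enough reads (Ttr, Kl, Clic6, Prlr and Enpp2). In the 13 libraries of high Ttr, Pearson's r was 0.987 (permutation p = 0.00066 within groups, 0.00594 after Benjamini-Hochberg adjustment over 18 relations) and Spearman's rho was 0.973 (permutation p = 0.0008, adjusted 0.0072), and r was 0.972 without the 2 libraries farthest on the marker axis. In the 10 libraries of low Ttr, r was -0.621 (permutation p = 0.223, adjusted 0.401) and rho -0.527 (p = 0.27, adjusted 0.467). The split was made on Ttr, itself a gene of the score, and left 2 or 3 low-Ttr libraries per group. Car12 had as few as 9 reads in them, so no conclusion is drawn from this r. In the 24 hippocampus libraries r was 0.426 (permutation p = 0.0962, adjusted 0.247) and rho 0.410 (p = 0.0761, adjusted 0.196), with r of 0.412 without the 2 farthest. In hippocampus, 2 genes of this score, Enpp2 (128 to 255 CPM) and Kl (19.6 to 28.5 CPM), were well above 0 in every library, whatever its Ttr. The score is thus not a measure of choroid plexus alone there. The part of choroid plexus RNA in the brainstem level of Car12 was not tested otherwise. With the 10 low-Ttr libraries alone as brainstem, chosen once the values had been seen, the region difference of Car12 became 4.66 ± 0.0918 on the log2 scale, or 25.3-fold.

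The hippocampal Ttr level was 12.8 to 273 CPM, and the summed choroid plexus markers had medians of 274 CPM (range 236 to 382) in TG_SD, 250 CPM (207 to 578) in WT_SD, 216 CPM (208 to 370) in TG_HFD and 214 CPM (178 to 258) in WT_HFD. These ranges overlapped between genotypes on both diets. Enpp2 made up much of these sums, with a median of 162 CPM over the hippocampus libraries against 235 CPM for the sum. The sums are therefore not a measure of choroid plexus content alone. With log2 CPM of Ttr as a covariate and no surrogate variables, added after seeing the data, Car12 had log2 fold changes of 0.31 on SD and 0.23 on HFD, against 0.31 and 0.25 without either. The summed 8 markers of hippocampal subfields did differ, at 483 to 518 CPM in TG_HFD and 530 to 630 CPM in WT_HFD, without overlap. On HFD 4.27% of single genes were apart, and the sums of the other marker lists overlapped. On SD the subfield sums overlapped, with medians of 514 CPM in TG and 536 CPM in WT. The part of tissue makeup in the Car12 values was not tested.

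The genes whose log2 CPM ran closest to Car12 differed by region. Over the 23 brainstem libraries they were Tmem72 (Pearson's r = 0.97), 1500015O10Rik (0.96), Col8a1 (0.96), Enpp2 (0.96) and Sostdc1 (0.95), of which Enpp2 and Sostdc1 are in the choroid plexus list. Among the 5 closest over the 24 hippocampus libraries were Hrk (0.76), Tmem255a (0.75), Frem3 (0.74) and Thy1 (0.74). Car12 was chosen for its difference between TG and WT, so these values hold the genotype difference. The transgene uses the Thy1 promoter, and the paper left Thy1 out of its clustering and enrichments, citing a strongly biased profile. Whether the Thy1 row holds reads of the transgene was not tested. After the group means were removed, the closest hippocampal genes were Tuba8 (0.80), Gpd1l (0.79) and Klhl36 (0.75). Ranked by Spearman's rho, 3 of the 5 genes stayed in the list in each region.

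The tested genes that neighbour Car12 on chromosome 9 in the reference annotation were not called for genotype. On one side they are Usp3, Herc1, Ciao2a and Snx1, and on the other Aph1b, Ppp1r2-ps4, Aph1c and Rab8b. In hippocampus their log2 fold changes (TG minus WT) ranged from -0.12 to 0.13 on SD and from -0.22 to 0.06 on HFD, and 0 of 8 were called by edgeR on either diet, with 0 and 1 at an unadjusted p under 0.05. In brainstem 0 of 8 were called on either diet, with 1 and 0 at an unadjusted p under 0.05. Aph1b and Aph1c, and the pseudogene Ppp1r2-ps4, have near-identical copies, so their counts are uncertain.

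Car4 was higher in hippocampus than in brainstem, at 26.8 to 38.1 CPM against 10.6 to 18.5 CPM, a log2 difference of 1.14 ± 0.0483 (2.21-fold). TG_SD had the highest group mean in both regions. In hippocampus the TG_SD libraries had 32.2, 34.7, 35.3, 36.5, 36.6 and 38.1 CPM, the WT_SD libraries 30.3 to 35.0 CPM (median 31.8), the TG_HFD libraries 28.8 to 32.2 CPM (median 31.0) and the WT_HFD libraries 26.8 to 34.3 CPM (median 30.2). The lowest TG_SD library lay at the upper end of TG_HFD, and TG_SD overlapped WT_SD.

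The hippocampal Car4 log2 fold change of TG over WT on SD was 0.18 ± 0.0521 (interval 0.08 to 0.29), with adjusted p = 0.201 in edgeR, and that of HFD over SD in TG was -0.21 ± 0.0491 (interval -0.31 to -0.11), with an unadjusted p = 0.000205 and an adjusted p = 0.21. In brainstem the same contrasts gave 0.32 ± 0.111 (interval 0.09 to 0.55, adjusted p = 0.262) and -0.30 ± 0.113 (interval -0.53 to -0.07, adjusted p = 0.572). None of these passed the test. On HFD the genotype values were 0.08 ± 0.0691 in hippocampus and 0.03 ± 0.136 in brainstem, and the difference between the diets was -0.11 ± 0.0784 (interval -0.27 to 0.05) and -0.30 ± 0.176 (interval -0.66 to 0.06).

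**Figure D4:**
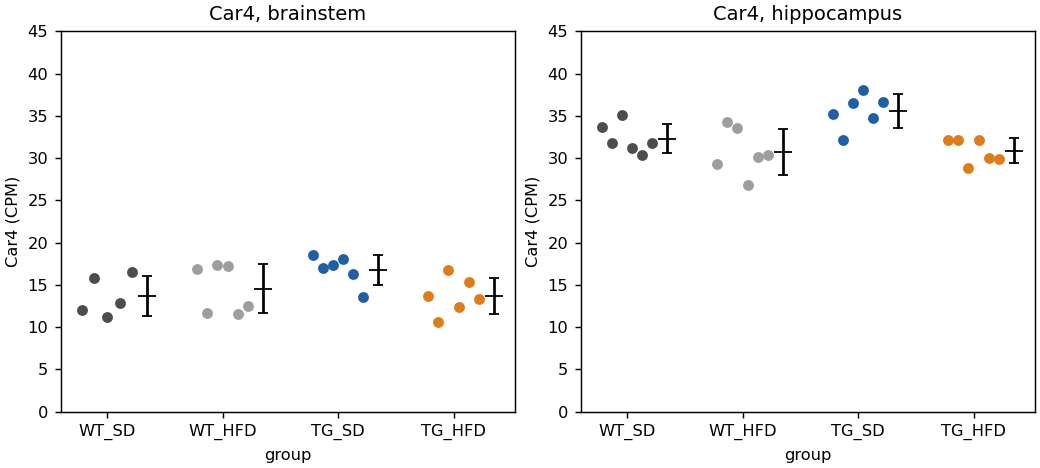
Car4 CPM in every library (points) by group, with group mean and SD (bars), in brainstem (left) and hippocampus (right). TG_SD has the highest mean in both regions, 16.8 and 35.6 CPM, and its range overlaps that of WT_SD in both.

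Car4 deviated together with the 7 endothelial markers (mean log2 CPM, after removal of group means). Pearson's r was 0.590 in 23 brainstem libraries (permutation p = 0.00993, adjusted 0.0357; rho 0.571, p = 0.0115, adjusted 0.0517; r 0.674 without the 2 farthest) and 0.602 in 24 hippocampus libraries (permutation p = 0.0019, adjusted 0.00855; rho 0.511, p = 0.0146, adjusted 0.0527; r 0.501 without the 2 farthest). The adjusted p of the rank measure missed 0.05 in both. The summed endothelial markers had medians of 442 CPM in TG_SD and 409 CPM in WT_SD brainstem, with ranges of 407 to 464 and 401 to 474 CPM, and of 251 and 250 CPM in hippocampus. The tight junction gene Cldn5 rose in TG_SD over WT_SD brainstem by 0.39 ± 0.0836 (adjusted p = 0.0284 in edgeR) and was the only one of the 7 called there. All 7 markers were lower in hippocampus than in brainstem, from Cldn5 at -0.22 (under the fold limit) to Slco1a4 at -1.05 (log2), opposite to Car4. The genes closest to Car4 after removal of group means were Ap1s1, Atp6v1g2 and Slc48a1 (each r = 0.78) in brainstem. In hippocampus they were B4galt2 (0.78), Pdzd4 (0.76) and Lrrc3b (0.74). None of these is on the endothelial list. The part of the endothelial markers in the Car4 values was not tested.

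Car14 showed no genotype or diet difference past the test. In brainstem its log2 fold changes of TG over WT were -0.02 ± 0.0734 on SD (interval -0.17 to 0.13) and -0.04 ± 0.0897 on HFD (interval -0.22 to 0.14). In hippocampus, at a level near 4.50 CPM, they were -0.09 ± 0.182 (interval -0.46 to 0.28) and 0.28 ± 0.242 (interval -0.22 to 0.77), which leaves room for differences as large as that of Car12. The ranges of Car14 in brainstem libraries of low Ttr (29.0 to 41.9 CPM) and high Ttr (30.0 to 43.9 CPM) overlapped, where those of Car12 did not. Its r with the choroid plexus markers was 0.419 in the 13 libraries of high Ttr (permutation p = 0.145, adjusted 0.289; rho 0.330, p = 0.292, adjusted 0.467; r 0.630 without the 2 farthest), -0.161 in the 10 of low Ttr (permutation p = 0.753, adjusted 0.904; rho -0.0182, p = 0.973, adjusted 0.973) and 0.0160 in hippocampus (permutation p = 0.949, adjusted 0.949; rho -0.0574, p = 0.814, adjusted 0.861).

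Car2, the most abundant member, was 2.88-fold lower in hippocampus, at 143 to 185 CPM against 393 to 550 CPM in brainstem (log2 difference -1.52 ± 0.0306). All 9 oligodendrocyte markers, among them the myelin protein gene Mbp and Opalin, were also lower in hippocampus, by 1.29 to 2.38 on the log2 scale. In brainstem, TG_SD had 460 to 532 CPM of Car2 and WT_SD 393 to 504 CPM, a log2 fold change of 0.13 ± 0.0435 (interval 0.04 to 0.22) with adjusted p = 0.249 in edgeR. On HFD it was 0.05 ± 0.0526 (interval -0.05 to 0.16), and in hippocampus -0.01 ± 0.0535 (interval -0.12 to 0.10) on SD and 0.03 ± 0.0696 (interval -0.11 to 0.17) on HFD.

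Car2 deviated together with the oligodendrocyte markers in hippocampus, and whether this differed from brainstem was not tested. Over 24 hippocampus libraries r was 0.678 (permutation p = 0.00177, adjusted 0.00855; rho 0.630, p = 0.00326, adjusted 0.0196; r 0.487 without the 2 farthest), and over 23 brainstem libraries 0.272 (permutation p = 0.307, adjusted 0.461; rho 0.354, p = 0.12, adjusted 0.269; r 0.148 without the 2 farthest). Of all tested genes, the closest to Car2 in hippocampus after removal of group means were Plekhb1 (r = 0.85), Mbp (0.81) and Csrp1 (0.80), and in brainstem Ndrg1 (0.84), Capns1 (0.83) and Thy1 (0.83). The caution given above for the Thy1 row holds here too.

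Car7 was a low-level gene, at 3.59 to 7.97 CPM in brainstem and 7.93 to 15.7 CPM in hippocampus (log2 difference 0.88 ± 0.0618, 1.85-fold). On HFD in brainstem the TG libraries had 3.59, 5.69, 5.69, 5.72, 5.91 and 6.50 CPM and the WT libraries 6.74, 6.78, 7.08, 7.22, 7.22 and 7.97 CPM. Every TG library was below every WT library, as in 0.675% of all genes in that contrast. The fit with surrogate variables gave a log2 fold change of only -0.17 ± 0.144 (interval -0.47 to 0.12, adjusted p = 0.957 in edgeR), and without them it was -0.37 ± 0.13 (adjusted p = 0.149), past the test in neither.

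In hippocampus the Car7 log2 fold change of TG over WT on HFD was -0.25 ± 0.134 (interval -0.52 to 0.02, adjusted p = 0.503 in edgeR), and that of HFD over SD in TG was -0.24 ± 0.0963 (interval -0.44 to -0.05, adjusted p = 0.551). On SD the value was 0.01 ± 0.10 (interval -0.19 to 0.21). The relation of Car7 to the 7 neuron markers did not pass, with r of 0.396 in brainstem (permutation p = 0.143, adjusted 0.289; rho 0.304, p = 0.207, adjusted 0.415; r 0.0847 without the 2 farthest) and -0.0850 in hippocampus (permutation p = 0.716, adjusted 0.904; rho -0.103, p = 0.652, adjusted 0.838).

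Of the inactive members, Car8 was the most variable in brainstem, from 7.03 to 49.6 CPM, and low in hippocampus, from 2.28 to 7.76 CPM (log2 difference -2.38 ± 0.154, 5.22-fold). The brainstem TG_SD libraries had 10.3, 12.1, 22.2, 22.8, 22.8 and 49.6 CPM, and the WT_SD libraries had 7.03, 9.58, 15.3, 16.1 and 21.4 CPM. The groups overlapped, and the single highest library was TG_SD replicate 2. The genotype log2 fold changes were 0.56 ± 0.296 on SD (interval -0.05 to 1.17, adjusted p = 0.517 in edgeR) and -0.32 ± 0.337 on HFD (interval -1.01 to 0.37, adjusted p = 0.967), and the HFD value differed from the SD value by -0.88 ± 0.450 (interval -1.80 to 0.05, adjusted p = 0.993).

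Car8 in brainstem ran with genes of the cerebellum, which borders the medulla. Its closest genes after removal of group means were Gabra6 (r = 0.94), Cbln3 (0.93) and Zic1 (0.76), the first pair being granule cell genes of the cerebellar list. With the mean of 4 cerebellar markers (Cbln1, Cbln3, Pvalb and Calb1), r was 0.910 over 23 libraries (permutation p = 1e-05, the smallest that 100000 permutations can give, adjusted 0.00018) and rho 0.853 (p = 1e-05, adjusted 0.00018), and r was 0.860 without the 2 farthest libraries. The highest Car8 library also held the most Gabra6, 21.9 CPM, against 0.552 to 9.66 CPM in the others. The Purkinje cell gene Pcp2 was at 0 to 1.42 CPM in brainstem, and the summed cerebellar list had 282 to 419 CPM in TG_SD, 255 to 338 in WT_SD, 234 to 312 in TG_HFD and 283 to 352 in WT_HFD. In hippocampus Gabra6 had a median of 0, and r was 0.312 (permutation p = 0.262, adjusted 0.428; rho 0.106, p = 0.647, adjusted 0.838). Pvalb made up much of the summed list, with a median of 189 CPM in brainstem against 306 CPM for the sum. In hippocampus Calb1 had a median of 131 CPM and Cbln3 of 0.402 CPM. In every brainstem library, Pvalb (151 to 249 CPM), Cbln1 (26.6 to 64.1 CPM) and Calb1 (31.5 to 69.2 CPM) were well above 0. The sums, and r in both regions, are therefore not measures of cerebellar tissue alone. The part of cerebellar tissue in the brainstem level of Car8 was not tested.

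Without the 13 brainstem libraries of high Ttr, the region difference of Car8 was -1.98 ± 0.142 in place of -2.38, and its genotype log2 fold changes, without surrogate variables, were -0.19 (interval -1.05 to 0.68) on SD and -0.05 (interval -0.87 to 0.77) on HFD. The 10 libraries kept had 7.03 to 23.3 CPM, so the highest Car8 libraries were also among those rich in Ttr. Car8 missed the count minimum in hippocampus. Without that minimum its hippocampal log2 fold changes were -0.15 ± 0.185 on SD and 0.27 ± 0.207 on HFD, with adjusted p = 1 and 0.741 in edgeR.

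Car10 and Car11, both ligands of neurexins, had opposite region profiles. Car10 had 46.9 to 61.6 CPM in brainstem and 35.5 to 44.6 CPM in hippocampus (log2 difference -0.48 ± 0.0322, 1.39-fold), the smallest region difference of the 8 members. Car11 had 14.8 to 30.7 CPM in brainstem and 48.5 to 84.5 CPM in hippocampus (1.47 ± 0.053, 2.77-fold). Of their partners, Nrxn2 was higher in hippocampus and Nrxn3 differed by 0.05 on the log2 scale. The Car8 partner Itpr1 was higher in hippocampus by 2.33, opposite to Car8.

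Car11 in hippocampus had 64.2 to 84.5 CPM in WT_HFD (median 75.0), 53.0 to 69.0 in TG_HFD (median 60.7), 49.4 to 70.4 in WT_SD (median 61.7) and 48.5 to 67.8 in TG_SD (median 62.9). WT_HFD had the highest libraries but overlapped the other groups. The fit with 4 surrogate variables gave a log2 fold change of TG over WT on HFD of 0.01 ± 0.0678 (interval -0.13 to 0.14, adjusted p = 0.987 in edgeR), whereas without surrogate variables it was -0.28 ± 0.0883 (adjusted p = 0.0486), under the fold limit of 0.3. That of HFD over SD in WT was 0.12 ± 0.0572 (interval 0.00 to 0.24, adjusted p = 0.767), and 0.29 ± 0.0885 without surrogate variables (adjusted p = 0.27). In brainstem WT_HFD also had the highest group mean of Car11, 25.9 CPM against 21.5 CPM in TG_HFD. The brainstem log2 fold change of TG over WT on HFD was 0.11 ± 0.0810 (interval -0.06 to 0.27, adjusted p = 0.952 in edgeR). Without surrogate variables it was -0.26 ± 0.114 (interval -0.50 to -0.03, adjusted p = 0.212).

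Car10 stayed close to its group means. Its genotype log2 fold changes were -0.06 ± 0.0538 (interval -0.17 to 0.05) and 0.06 ± 0.0648 (interval -0.07 to 0.19) in brainstem and 0.02 ± 0.0514 (interval -0.08 to 0.13) and 0.11 ± 0.0666 (interval -0.02 to 0.25) in hippocampus, on SD and HFD. With the neuron markers, Car10 in hippocampus had r of 0.491 (permutation p = 0.0154, adjusted 0.0463; rho 0.429, p = 0.0431, adjusted 0.129; r 0.397 without the 2 farthest) and in brainstem 0.0473 (permutation p = 0.818, adjusted 0.921; rho 0.0553, p = 0.799, adjusted 0.861). Car11 had 0.206 in brainstem (permutation p = 0.409, adjusted 0.566; rho 0.0711, p = 0.771, adjusted 0.861) and -0.0227 in hippocampus (permutation p = 0.924, adjusted 0.949; rho -0.235, p = 0.311, adjusted 0.467).

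Apart from Car12 in hippocampus, no member passed the test in any contrast of genotype or diet. In brainstem 0 of 8 members were called by edgeR on SD (0.142% of all genes) and on HFD (0.0525% of all genes) for genotype, with 2 and 0 at an unadjusted p under 0.05. No member had groups apart on SD (0.555% of all genes). For HFD over SD, 0 of 8 were called in WT (0% of all genes) and in TG (0.0075% of all genes), with 0 and 1 at an unadjusted p under 0.05, and 0 of 8 for the interaction (0.0075% of all genes), with 0. In hippocampus 0 of 7 were called for diet in WT (0% of all genes), in TG (0% of all genes) and for the interaction (0% of all genes), with 1, 2 and 0 at an unadjusted p under 0.05. Other than Car12 in hippocampus, DESeq2 with the same surrogate variables called 0 of the members to which it gave an adjusted p. It gave none to 3 of them for genotype in brainstem on SD (Car4, Car7 and Car12), nor to 5 for the interaction in hippocampus (Car4, Car7, Car10, Car11 and Car14), so that these could not be called there. No member other than Car12 in hippocampus was called under any of 38 settings in either region. The median log2 fold change over the members lay between -0.09 and 0.08 in these 10 contrasts, and that over all genes between -0.01 and 0.01.

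**Figure D5:**
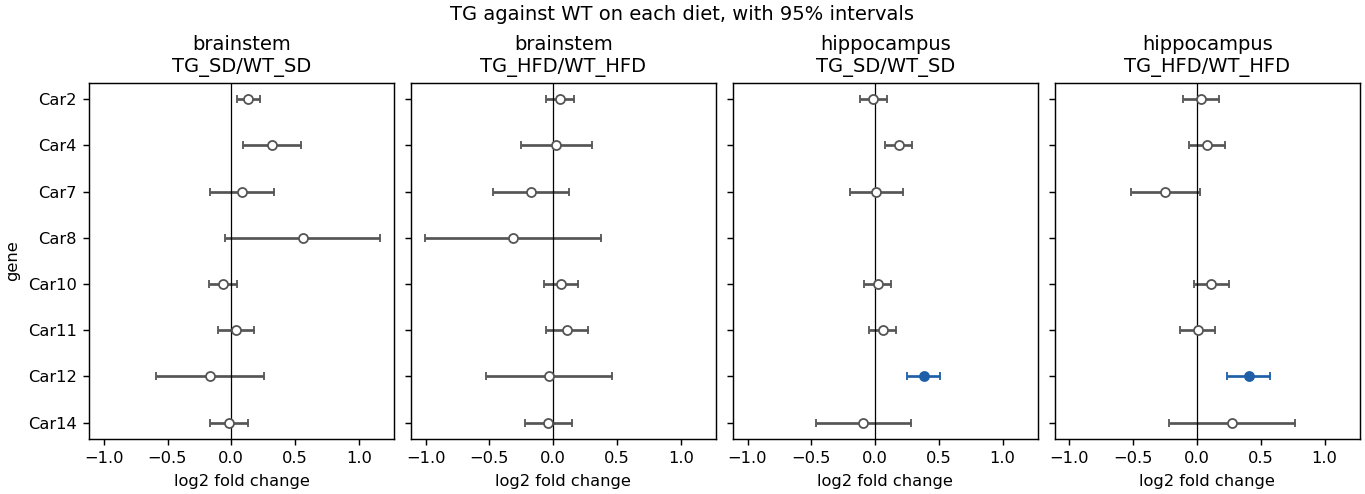
Log2 fold change of TG over WT with its 95% interval for each member, by region and diet, from the edgeR fit with 4 surrogate variables. Only Car12 in hippocampus (filled), at 0.38 and 0.40, met both limits, in the contrasts that chose it. Car8 has no value in hippocampus because it missed the count minimum.

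The genotype difference of a member did not differ between regions past the test either, with 0 of 7 members other than Car12 called by edgeR on each diet (0.00743% of all genes on SD and 0.00743% on HFD). An unadjusted p under 0.05 was found for Car8 on SD (log2 difference of differences, hippocampus minus brainstem, -1.05 ± 0.447, interval -1.95 to -0.15, adjusted p = 1) and for Car14 on HFD (0.38 ± 0.182, interval 0.01 to 0.74, adjusted p = 0.857). For Car12, untested, these values were -0.13 ± 0.701 and 0.50 ± 0.695, with intervals from -1.54 to 1.28 and from -0.90 to 1.90. Its intervals were the widest of the 8 members on both diets. DESeq2 called 0 members on either diet as well.

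Of the other 8 carbonic anhydrase genes, Car5b, a mitochondrial enzyme, and Car13, a cytosolic one, had the highest levels. Car5b had 10.4 to 16.9 CPM in brainstem and 3.30 to 6.13 CPM in hippocampus (log2 difference -1.54 ± 0.0559), and Car13 had 4.89 to 9.02 and 0.285 to 1.23 CPM. Car1, Car3, Car5a, Car6, Car9 and Car15 had at most 2.24 CPM, and Car9, which is induced by hypoxia elsewhere, at most 1.26 CPM. None of those tested was called for genotype, with Car5b at 0.26 ± 0.112 on SD (adjusted p = 0.479 in edgeR) and -0.11 ± 0.149 on HFD in hippocampus and at 0.13 ± 0.0977 and 0.10 ± 0.120 in brainstem.

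Many genes that handle the same ions were called between the regions, where 60.2% of all genes tested were. These region counts are therefore not read as a feature of the lists. Of the bicarbonate transporters tested, 2 of 7 were called higher and 3 lower in hippocampus, from Slc26a6 at -7.44 to Slc4a10 at 1.43 (log2). The Slc26a6 row is uncertain, since it held 958 to 1957 CPM in brainstem and 3.77 to 7.73 CPM in 23 hippocampus libraries but 154 CPM in the other one, of TG_SD, where the brainstem genes Slc6a5 and Glra1 were at 0. Its hippocampal genotype values, 1.15 on SD and -2.15 on HFD, were not called. Of the proton and lactate transporters 2 of 10 were higher and 4 lower (from Emb at -1.48 to Slc9a2 at 2.56), of the chloride cotransporters 0 and 4 of 5 (from Slc12a2 at -2.06 to Slc12a5 at 0.12), and of the IP3 receptors 1 and 1 of 3 (Itpr3 at -1.18). None of the genes of these lists was called by edgeR for genotype or diet in either region, where at most 0.226% of all genes were. The chloride exporter Slc12a5, whose gradient the current through GABA-A receptors uses, differed by 0.12, under the fold limit, while Car7 was 1.85-fold higher in hippocampus.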

How the data were processed

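RNA sequencing of poly(A)-selected, single-end, 75-base libraries was analysed in 23 libraries of brainstem and 24 of hippocampus. The authors aligned reads with STAR 2.7.9a to the Ensembl mouse genome with the transgene's sequence added, and deposited raw counts per gene and library. The rule for assigning reads to genes is not given in the sources used here. Symbols, exon lengths, neighbours and exon overlap came from GENCODE M21 (GRCm38), another build, so no coordinates are given. Some genes, the check of the transgene among them, are not reported here.

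Genes averaging 50 or more reads per library were tested with edgeR 4.0.16 (R 4.3.3) by the quasi-likelihood F test, with TMM normalization, the 4 groups of a region in 1 model and 4 surrogate variables from sva 3.50.0, the number given in both regions by its permutation method with 20 iterations (its Leek method gave 0). Regions were compared in a joint model without surrogate variables. A gene was called when its p, adjusted by Benjamini and Hochberg, did not exceed 0.05 and its log2 fold change reached 0.3 in size. Intervals are 95%. Correlations used log2 CPM (prior count 2) as deviations from group means, with 100000 two-sided permutations within groups. Alternatives included DESeq2 1.42.0, other filters and normalizations, fewer surrogate variables, a GC offset, a replicate block and each library left out. On simulated data the hippocampal HFD fit with 4 surrogate variables recovered 89% of 1.5-fold and 98% of 2-fold changes. These counts were drawn without hidden variation, and the permutation method found 0 surrogate variables in them. Smaller changes were not simulated, so the rates do not give the power for folds such as that of Car12 in these data. The members and lists were chosen with earlier results of these data known. Named genes are the members, the called and the extreme genes of each list, and the 4 tested neighbours on each side of Car12. The genes most like Car2, Car4, Car8 and Car12 are also named. Those most like the other members were computed but are not named.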

Additional observations from a re-analysis of the deposited data

Results flagged for a closer look

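Of 64 groups of libraries (8 genes, 2 regions, 4 groups), 7 held 1 library far from the others of its group, where chance flags about 1 in 20. Car7 was low in brainstem TG_HFD replicate 3, at 3.59 CPM against 5.69 to 6.50 CPM in the others, and high in hippocampus WT_HFD replicate 3, at 15.7 against 10.8 to 12 CPM. Car8 was high in brainstem TG_SD replicate 2, at 49.6 against 10.3 to 22.8 CPM, in brainstem WT_HFD replicate 8, at 30.8 against 14.3 to 20.1 CPM, and in hippocampus WT_SD replicate 5, at 7.76 against 2.73 to 4.40 CPM. Car12 was high in brainstem TG_HFD replicate 3, at 20.5 against 0.597 to 7.72 CPM, and in brainstem WT_HFD replicate 7, at 21.7 against 1.24 to 8.47 CPM. Ttr in these last libraries was 2277 and 2736 CPM.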

How the results depend on the processing

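The number of members called in hippocampus was 1 (Car12) for genotype on each diet and fell to 0 with 0, 1, 2 or 3 surrogate variables, and, without surrogate variables, with a GC content offset, with only the 2 groups compared or with Ttr as a covariate (added after seeing the data). On HFD it fell to 0 also in DESeq2 without surrogate variables. With a replicate block, without surrogate variables, it was 0 on both diets, and Car12 had log2 fold changes of 0.31 and 0.25. When each library was left out in turn the count was 0 to 1, being 0 on both diets without WT_SD replicates 3, 6 or 8 or WT_HFD replicate 8, and on HFD also without TG_HFD replicates 5, 6 or 8. The log2 fold change of Car12 then ranged from 0.22 to 0.42 on SD and from 0.27 to 0.43 on HFD. The cause was not tested. Replicate numbers were not taken to pair the libraries, since the labels do not say so. Correlations of deviations between same-numbered libraries ran from -0.31 to 0.40 in brainstem (10 of 26 above 0.1) and from -0.15 to 0.41 in hippocampus (15 of 36). Of the libraries, 3 of 23 and 9 of 24 correlated best with their own number. The share given by chance was not computed, so these counts do not settle whether the numbers pair libraries. All 8 members stayed called between the regions in all 55 settings run, and Car12 there ranged from 2.45 to 2.80 with 1 library left out. Of 3618 uncalled values under alternatives, 290 changed sign. Depth limits Car8 in hippocampus (30 to 105 reads) and Car12 in low-Ttr brainstem (from 9 reads).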
